A study of Ovis aries with 3 samples.

Results

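The genes described here are 9 enzymes of glycolysis, namely *HK1*, *ALDOA*, *ALDOC*, *TPI1*, *GAPDH*, *PGK1*, *PGAM1*, *ENO1* and *LDHA*, together with *NDUFA4L2*. These 10 genes were selected on their measured levels, because they were lower in the short-tailed embryo in earlier results of these data, and each was found once by its symbol among the 26478 genes counted, of which 16670 carry a symbol. Because the choice used the levels of E19 HSTS and E19 HS, those levels are a description, and no test was made of them. Whole sheep embryos were dissociated and captured in droplets, and 1 library was analysed for each of 3 groups. E19 HSTS is an embryo of Hulunbuir short-tailed sheep at day 19, a breed whose genotyped adults in the study were homozygous for a coding change in the *T* gene. E19 HS is an embryo of Hu sheep at day 19, the breed without that change, and E16 HS is Hu sheep at day 16. The methods speak of 3 embryos for E16 HS where the label names 1, so it is not settled whether that library is a pool. All 3 libraries passed through collagenase digestion and lysis of red blood cells. With 1 library in each group there is no replicate, and breed, embryo and library cannot be told apart.

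Glycolysis turns glucose into pyruvate in the cytosol. *HK1* traps glucose as its phosphate, the aldolases *ALDOA* and *ALDOC* split the 6-carbon sugar, *TPI1* interconverts the products, *GAPDH*, *PGK1*, *PGAM1* and *ENO1* carry the carbon down to phosphoenolpyruvate, and *LDHA* reduces pyruvate to lactate. When oxygen is low, the transcription factor HIF-1, a dimer of *HIF1A* and *ARNT*, is no longer degraded through *VHL* and raises the transcription of most of these enzymes. *NDUFA4L2* is a mitochondrial protein related to *NDUFA4*, a subunit of the terminal oxidase of respiration, and its gene is among the strongly induced targets of HIF-1. Early mammalian embryos live at low oxygen before the placental circulation is established and rely on glycolysis at those stages.

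The cells used were those with 200 to 6000 genes, 1000 to 30000 unique molecular identifiers (UMIs) and no more than 10% of these from mitochondrial genes. They numbered 11329 in E16 HS, 10629 in E19 HS and 9618 in E19 HSTS, with 88733467 to 113213654 UMIs in a library. The median depth was 9046 UMIs in E16 HS, 6900 in E19 HS and 8675 in E19 HSTS. Any pair of libraries shared 31 to 37 cell barcodes, 0.274 to 0.348% of the cells of either. Levels are given as UMIs of the gene per 1000000 UMIs of the kept cells (CPM), with the exact Poisson interval at the 95% level, and ratios with their exact interval. All intervals cover counting error only and say nothing of the spread between embryos. These are counts of transcript 3′ ends, so levels are compared between libraries and not between genes.

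Among the members other than *GAPDH*, *NDUFA4L2* differed most between the day 19 embryos. Its level was 74.5 CPM (72.9 to 76.1) in E16 HS, 37.0 CPM (35.7 to 38.3) in E19 HS and 9.42 CPM (8.83 to 10.0) in E19 HSTS, so the 3 libraries stood apart and the short-tailed embryo was lowest. The short-tailed embryo thus had 0.255 of the E19 HS level (0.237 to 0.274). A UMI of *NDUFA4L2* was found in 37.0% of the cells of E16 HS, 21.2% of E19 HS and 7.48% of E19 HSTS. After thinning to 3000 UMIs in each cell, which drops 1317, 1345 and 1106 cells below that depth in the same order, the shares were 17.6%, 11.6% and 3.34%. In blood progenitor-like cells, where the gene was close to absent, the thinned shares were 1.247%, 0.355% and 0.116%, so the embryo-wide shares lay above that background in each library.

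The last enzyme of the pathway followed the same order. *LDHA* stood at 204 CPM (201 to 207) in E16 HS, 118 CPM (116 to 121) in E19 HS and 58.3 CPM (56.8 to 59.8) in E19 HSTS, a ratio between the day 19 embryos of 0.493 (0.477 to 0.509). The 4 preceding enzymes counted here, which work below the split of the sugar, were *GAPDH*, *PGK1*, *PGAM1* and *ENO1*. *PGK1*, the first step that yields ATP, had 559 CPM in E16 HS, 383 CPM in E19 HS and 211 CPM in E19 HSTS, a ratio of 0.551 (0.542 to 0.561). *PGAM1*, which moves the phosphate within the molecule, had 52.1, 38.5 and 22.3 CPM in the same order and a ratio of 0.579 (0.549 to 0.611). *ENO1*, which makes phosphoenolpyruvate, had 429, 289 and 171 CPM and a ratio of 0.592 (0.581 to 0.604). All 4 of *LDHA*, *PGK1*, *PGAM1* and *ENO1* were highest at day 16 and lowest in the short-tailed embryo, with intervals that did not overlap.

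Among the enzymes counted here that act before *GAPDH*, *HK1* stood apart from the rest. *ALDOA*, the main aldolase of muscle and embryo, had 364 CPM in E16 HS, 229 CPM in E19 HS and 133 CPM in E19 HSTS, with a ratio of 0.580 (0.567 to 0.593). *ALDOC*, the aldolase of brain, was rare, at 4.55 CPM (4.16 to 4.96), 3.17 CPM (2.81 to 3.56) and 1.496 CPM (1.27 to 1.76) in the same order, from 515, 281 and 149 UMIs. Its ratio of 0.472 carries a wide interval of 0.385 to 0.578. *TPI1* had 109, 63.4 and 33.0 CPM and a ratio of 0.520 (0.498 to 0.543). *HK1* was the member that differed least between the day 19 embryos, with 125 CPM (123 to 128) in E16 HS, 96.8 CPM (94.7 to 98.8) in E19 HS and 90.1 CPM (88.2 to 92.0) in E19 HSTS, a ratio of 0.931 (0.904 to 0.959).

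*GAPDH* did not follow the others in scale. It had 1314 CPM in E16 HS and 1477 CPM in E19 HS but 4.57 CPM (4.16 to 5.01) in E19 HSTS, from 455 UMIs, a ratio of 0.00309. Of 1015 genes with at least 100 CPM in the higher of the day 19 libraries, *GAPDH* was the only 1 with under 1% of its E19 HS level in E19 HSTS, and no gene was that low in the other direction. The ratio was between 0.00290 and 0.00497 in all 11 cell classes compared. *GAPDH* has processed copies in mammalian genomes, and reads shared with such copies could not be placed here. Whether its count in E19 HSTS reflects low expression or a loss of its reads in mapping or counting in this breed cannot be told apart from the counts. It is left out of the medians over members that follow unless it is named.

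**Figure D1:**
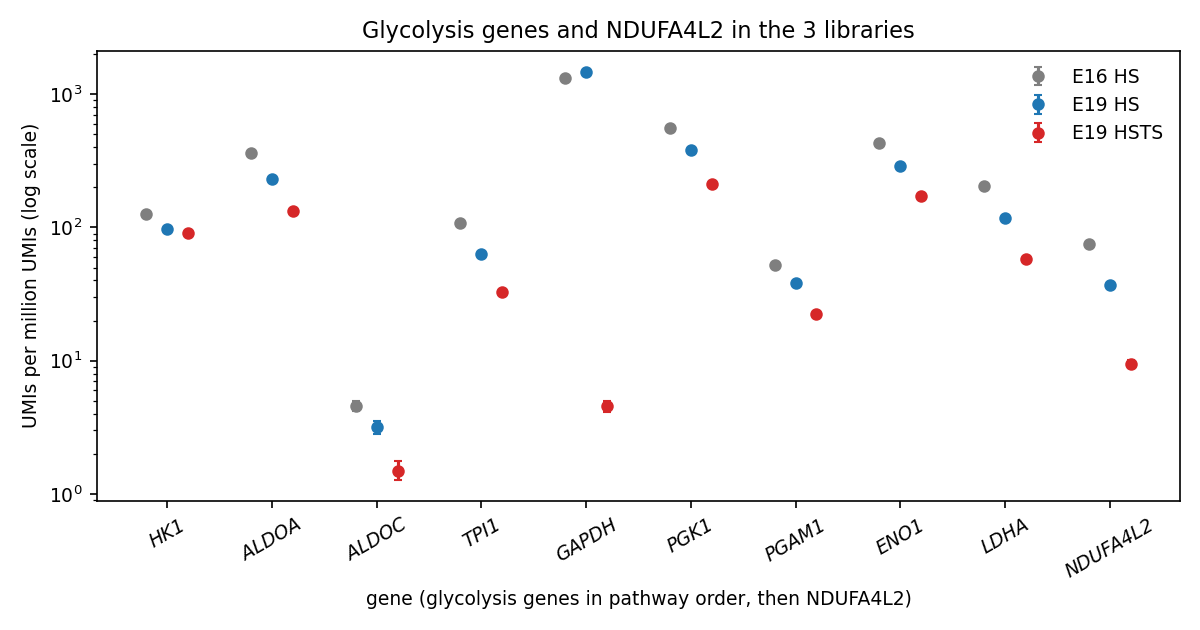
CPM over the kept cells (log scale) for each member in E16 HS, E19 HS and E19 HSTS, with exact Poisson 95% intervals that are mostly smaller than the points. Except for *GAPDH*, each member steps down from E16 HS to E19 HS and again to E19 HSTS, with the largest step to E19 HSTS in *NDUFA4L2* (37.0 to 9.42 CPM) and the smallest in *HK1* (96.8 to 90.1 CPM); *GAPDH* is at 4.57 CPM in E19 HSTS.

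A gene was counted as lower at a ratio of 0.8 or less, which is lower by at least 20%, and as higher where it exceeded the other library by at least 25%, the same step on a log scale. In E19 HSTS against E19 HS, 9 of the 10 members, *HK1* excepted, were lower by at least 20%, or 8 of 9 without *GAPDH*. Among all 11145 genes with at least 100 UMIs over both libraries, 18.0% were lower and 10.6% higher by these limits, and with TMM scaling 13.9% and 14.1%. Since the contrast was used to choose the members, their count is given beside this background and nothing is read from it. The median ratio of the 9 members other than *GAPDH* was 0.551, and that of all genes was 0.965.

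Blood cells made up more of the short-tailed library. Blood progenitor-like cells, named from erythroid markers, were 27.4% of the cells of E19 HSTS (26.5 to 28.3%) and 13.4% of E19 HS (12.7 to 14.0%), and gave 45.6% and 28.8% of the UMIs. The 7 markers of the 11 in their list that have a row summed to 1489 CPM in E16 HS, 1248 CPM in E19 HS and 2190 CPM in E19 HSTS. All 7 were higher in E19 HSTS than in E19 HS, and none was at 0. These cells held the lowest levels of most members, so a change in their share alone moves the embryo-wide values. With blood progenitor-like cells left out, the ratio was 0.328 for *NDUFA4L2*, 0.556 for *ALDOC*, 0.591 for *PGK1*, 0.649 for *LDHA* and 0.677 for *TPI1*. *ENO1*, *ALDOA* and *PGAM1* then came to 0.730, 0.737 and 0.754, and *HK1* to 0.815. The median ratio of all genes rose to 1.16 in the same cells, so the median member stood at 0.584 of the median gene, against 0.571 with all cells.

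Within cell classes the day 19 difference was found almost everywhere. Classes were clusters named by their resemblance to marker lists, made without the members and the other genes of glycolysis and hypoxia, and 11 classes had at least 50 cells in both day 19 libraries. Of 84 pairs of a class and a member other than *GAPDH* with at least 100 UMIs, 83 had a ratio below 1 and 67 were lower by at least 20%. The single pair above 1 was *HK1* in blood progenitor-like cells, at 1.48 (1.39 to 1.57), where the level was 89.2 CPM in E19 HSTS and 60.3 CPM in E19 HS. *PGK1*, *LDHA* and *ENO1* were lower by at least 20% in all 11 classes, and *NDUFA4L2* in all 8 classes where it reached 100 UMIs.

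*PGK1* ranged from 0.496 in extraembryonic endoderm-like cells to 0.631 in cardiomyocyte-like cells. *LDHA* ranged from 0.290 in blood progenitor-like cells to 0.756 in cardiomyocyte-like cells, and *TPI1* from 0.349 to 0.941 in the same classes. *ALDOA* ranged from 0.549 in early neuron-like cells to 0.998 in cardiomyocyte-like cells, where the levels were 1041 CPM in E19 HSTS and 1043 CPM in E19 HS. Cardiomyocyte-like cells had the highest *ALDOA* level of the classes in both day 19 libraries. In these clusters they gave the ratio closest to 1 for *ALDOA*, *TPI1*, *PGAM1*, *ENO1*, *LDHA*, *PGK1* and *NDUFA4L2*, and also at a clustering resolution of 1.0. With RPCA integration another class was closest to 1 for *ENO1*, *LDHA*, *PGK1* and *PGAM1*. Without the top doublet scores another class was closest for *TPI1*, *PGAM1* and *NDUFA4L2*. The place of this class is thus not settled for members other than *ALDOA*. Cardiomyocyte-like cells were few, with 84 cells in E19 HSTS and 112 in E19 HS, and differed in depth, with a median of 12466.5 against 4909 UMIs. Whether that depth bears on the ratios was not tested.

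The members were chosen on their levels in these same libraries, so their counts by class are a description and nothing is read from them. In most classes outside the blood few genes were lower by at least 20%. Many were higher by the limit given above, 41.0% in mesenchyme-like and 38.8% in neural progenitor-like cells. The median gene lay above 1 in these classes, so the limit for lower genes lay further below it. In mesenchyme-like cells 7 of 8 members were lower by at least 20%, where 4.74% of 7294 genes were and the median gene had a ratio of 1.19. In somite-like cells it was 7 of 8 against 4.36%, in neural progenitor-like cells 8 of 9 against 5.53%, and in urogenital-like cells 7 of 8 against 8.23%. In gut-like cells, whose leading genes are epithelial (*EPCAM*, *CLDN4*, *CLDN7*, *KRT7*), it was 7 of 8, where 235 of 4963 genes were lower, again 4.74%. Early neuron-like cells had 7 of 8 lower against 11.4% of genes, haematoendothelial progenitor-like cells 6 of 8 against 8.99%, and extraembryonic endoderm-like cells 5 of 7 against 14.3%. The shares were 3 of 5 against 8.46% in neural crest-like cells and 4 of 8 against 10.7% in cardiomyocyte-like cells. In blood progenitor-like cells 6 of 7 members were lower, where 22.2% of genes were. The mesenchyme-, somite-, urogenital- and neural crest-like names each include a cluster with 1 marker of its list among the 10 leading genes, and the mesenchyme-like cells of both day 19 libraries lay almost wholly in 1 cluster led by *POSTN* that tied with the somite list. The cluster of caudal progenitor-like cells, described by stage, tied with the limb ectoderm list, each with 2 markers among its leading genes.

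**Figure D2:**
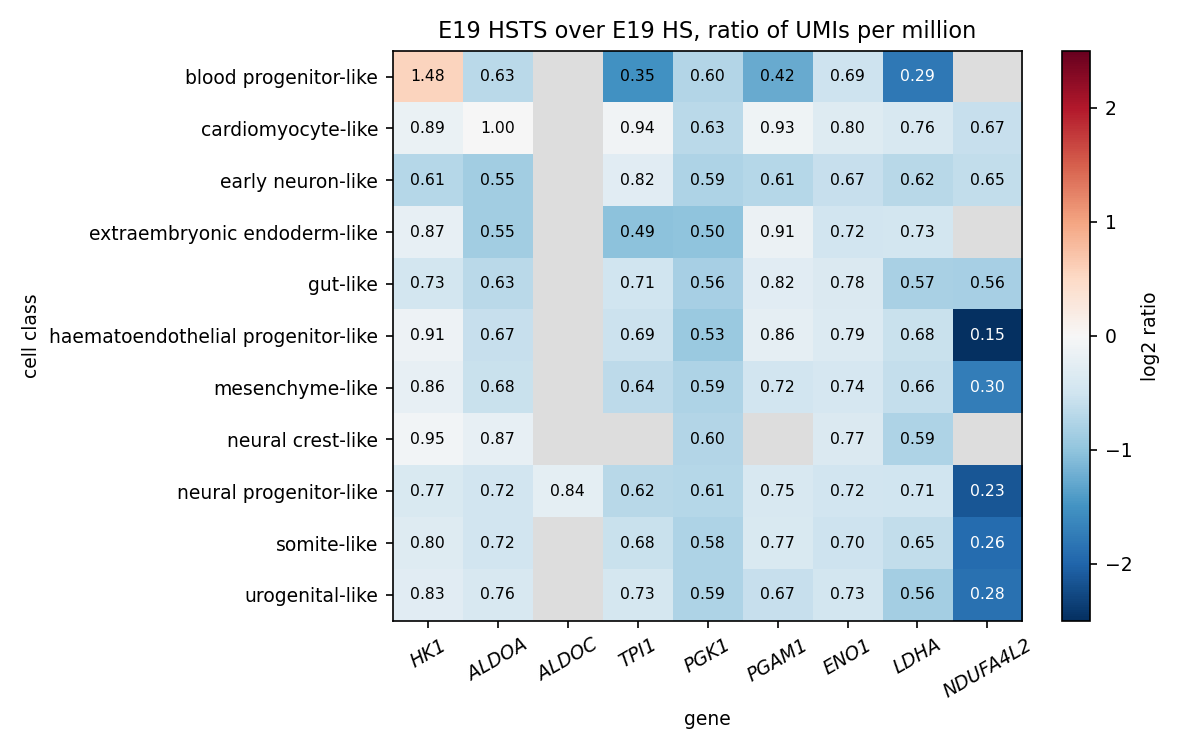
Ratio of the CPM in E19 HSTS to that in E19 HS for the 9 members other than *GAPDH* (columns) in the 11 cell classes with at least 50 cells in both libraries (rows), coloured on a log2 scale; grey cells had under 100 UMIs over both libraries. Of the 84 coloured cells 83 are below 1, the exception being *HK1* in blood progenitor-like cells (1.48), and the deepest values are those of *NDUFA4L2* (0.15 in haematoendothelial progenitor-like cells).

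*NDUFA4L2* differed in level between cell classes. In E19 HS it was highest in caudal progenitor-like cells, at 114 CPM (92.4 to 140), followed by cardiomyocyte-like cells at 86.7 CPM (67.9 to 109) and gut-like cells at 77.5 CPM (69.8 to 85.8). Haematoendothelial progenitor-, mesenchyme-, early neuron-, somite- and extraembryonic endoderm-like cells lay between 66.4 and 52.9 CPM, and urogenital- and neural crest-like cells at 44.4 and 43.9 CPM. Neural progenitor-like cells had 29.0 CPM (26.5 to 31.5) and blood progenitor-like cells 2.04 CPM (1.52 to 2.67). Only the step down to blood progenitor-like cells exceeded the counting intervals of both neighbours, so the order among the others is not settled between adjacent classes.

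In E19 HSTS the same gene was highest in cardiomyocyte-like cells, at 58.0 CPM (44.6 to 74.2), then gut-like cells at 43.6 CPM (37.5 to 50.5) and early neuron-like cells at 38.4 CPM (29.5 to 49.1). The intervals of these 3 classes overlapped, and the next class, mesenchyme-like cells at 18.7 CPM (16.3 to 21.3), lay below them all. Neural crest-, somite-, urogenital- and haematoendothelial progenitor-like cells followed with 16.2, 14.7, 12.2 and 9.67 CPM. Neural progenitor-like cells had 6.55 CPM, extraembryonic endoderm-like cells 5.06 CPM and blood progenitor-like cells 0.661 CPM (0.446 to 0.944). Caudal progenitor-like cells numbered only 36 in E19 HSTS and gave 4 UMIs, too few to compare. The ratio to E19 HS was 0.146 (0.0794 to 0.248) in haematoendothelial progenitor-like cells, 0.226 in neural progenitor-like, 0.264 in somite-like, 0.275 in urogenital-like and 0.3001 in mesenchyme-like cells. It was 0.563 in gut-like, 0.651 in early neuron-like and 0.669 (0.469 to 0.952) in cardiomyocyte-like cells. These were also the 3 classes with the highest level in E19 HSTS, but that level is the numerator of the ratio, so nothing is read from it. No UMI was found in myeloid-like cells, of which E16 HS had 14, E19 HS 46 and E19 HSTS 19. By the exact binomial limit this allows up to 23.2%, 7.71% and 17.6% of cells with a UMI, which is no limit on cells that express the gene.

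**Figure D3:**
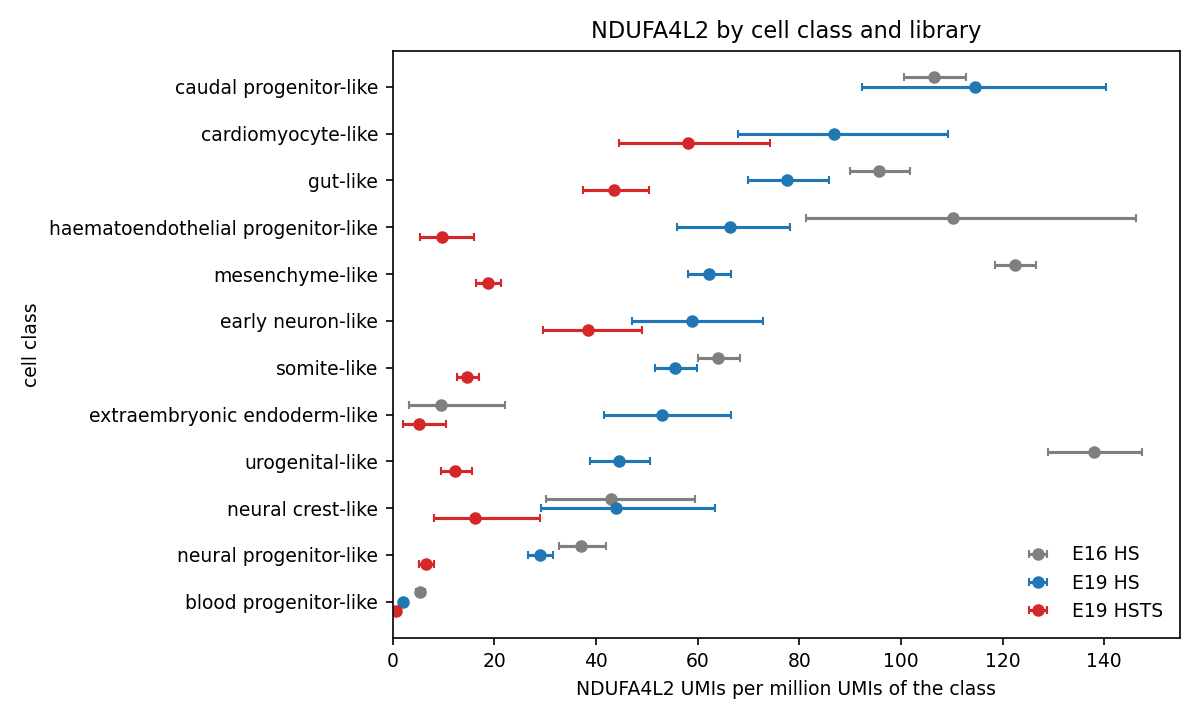
*NDUFA4L2* level in CPM of each cell class (horizontal axis) in E16 HS, E19 HS and E19 HSTS, for classes with at least 50 cells, with exact Poisson 95% intervals. E19 HSTS lies below E19 HS in every class shown for both, for example in haematoendothelial progenitor-like cells (9.67 against 66.4 CPM), and blood progenitor-like cells are near 0 in all 3 libraries.

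Whether the lower levels in E19 HSTS went with fewer transcripts of other genes that respond to low oxygen was read from gene lists. The lists were chosen with earlier results of these data known, so their counts are a description and not independent of this contrast. Of 40 hypoxia targets outside glycolysis, 35 have a row and 25 had at least 100 UMIs over the day 19 libraries. Of these 25, 17 were lower in E19 HSTS by at least 20% and 3 were higher, beside the 18.0% and 10.6% of all genes, and their median ratio was 0.680. *PDK1*, a mitochondrial kinase that inhibits pyruvate dehydrogenase, had 24.7 CPM in E19 HS and 10.5 CPM in E19 HSTS, a ratio of 0.424 (0.393 to 0.457). *BNIP3*, which acts in the removal of mitochondria, had 62.5 and 27.6 CPM in the same order, a ratio of 0.443. The glucose transporter *SLC2A3* had a ratio of 0.503, the cytokine *MIF* 0.540, the HIF hydroxylase *EGLN3* 0.657 and the growth factor of vessels *VEGFA* 0.719. The lowest ratios were those of *AK4*, at 0.405 (0.278 to 0.582), *PDK1* and *ANKRD37*, at 0.439 (0.326 to 0.588), *AK4* and *ANKRD37* being rare at under 2 CPM.

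Not all targets were lower. The glucose transporter *SLC2A1* was higher in E19 HSTS, at 13.1 CPM against 10.2 CPM, a ratio of 1.28 (1.18 to 1.40). The transferrin receptor *TFRC*, through which red cell precursors take up iron, had a ratio of 1.44 (1.32 to 1.58) and *NDRG1* 1.27 (1.09 to 1.48). *ADM* had 11 UMIs over both libraries and was not compared. With blood progenitor-like cells left out 12 of the 25 were lower, where 5.83% of all genes were, and the median ratio was 0.806 against 1.16 for all genes. Relative to the median gene the list thus stood at 0.705 with all cells and at 0.696 without blood cells. By class the targets were uneven. Their median ratio ran from 0.606 in extraembryonic endoderm-like cells, with 6 of 7 lower against 14.3% of all genes, to 1.02 in cardiomyocyte-like cells, with 1 of 7 lower against 10.7%. In mesenchyme-like cells 10 of 20 were lower against 4.74%, and in neural progenitor-like cells 7 of 21 against 5.53%.

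None of the 7 tested genes of the HIF regulator list was lower or higher by these limits. *HIF1A* had 22.2 CPM in E19 HS and 18.2 CPM in E19 HSTS, a ratio of 0.819 (0.768 to 0.874). *EPAS1*, the other main HIF subunit, had a ratio of 0.869 (0.631 to 1.20), *ARNT* 1.03 (0.851 to 1.245) and *VHL* 1.11 (0.876 to 1.41), each with an interval that holds 1. *HIF1A* is governed mainly by the stability of its protein, which was not measured.

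Of 15 further glycolysis and pyruvate genes tested, 6 were lower in E19 HSTS by at least 20% and 1 was higher, with a median ratio of 0.878. Over all genes 18.0% were lower and 10.6% higher. *GPI*, the step after hexokinase, had 33.4 CPM in E19 HS and 18.2 CPM in E19 HSTS, a ratio of 0.545, and the phosphofructokinases *PFKP* and *PFKL* had 0.599 and 0.632. *PKM*, the pyruvate kinase of embryonic tissue, came to 0.869 and *HK2* to 0.921. *PKLR*, the pyruvate kinase of liver and red cells, was the gene that was higher, at 7.14 CPM against 3.58 CPM, a ratio of 1.99 (1.74 to 2.28). No row carries the symbol *LDHB*. In the mitochondrial list, 4 of 33 genes of the terminal oxidase and complex I were lower and none was higher. That is 12.1% lower, under the share of all genes. A ratio below 1 was found for 31 of the 33, with a median of 0.881. Of all genes 56.9% were below 1, with a median of 0.965. *NDUFA4*, the relative of *NDUFA4L2*, had 1060 CPM in E19 HS and 1010 CPM in E19 HSTS, a ratio of 0.953 (0.944 to 0.961).

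Genes listed as responsive to handling differed in the same libraries, and whether handling was the source was not tested. Of 16 immediate early and heat shock genes, 8 were higher in E19 HSTS by at least 25% and 1 was lower, beside 10.6% and 18.0% of all genes. *HSPA1A*, an inducible chaperone, stood at 46.9 CPM in E19 HSTS and 7.63 CPM in E19 HS, *DNAJB1* at 113 and 38.4 CPM, and *FOS* at 219 and 115 CPM. Cells without a UMI of *FOS* or *HSPA1A* were 94.9% of E16 HS, 60.6% of E19 HS and 42.4% of E19 HSTS. In these cells alone the median ratio of the 9 members was 0.770 and that of *NDUFA4L2* 0.485, while the median of all genes was 1.31, so the median member stood at 0.588 of the median gene. *ALDOA*, *ENO1* and *PGAM1* were then at 0.881, 0.868 and 0.917. Of the 25 hypoxia targets 5 were lower by at least 20% there, where that limit lies further below the median gene than with all cells. The median ratio of the targets was 0.958 there, against 0.680 with all cells. Relative to the median gene it stood at 0.732, against 0.705 with all cells. Within classes the same selection left 60 pairs of member and class, of which 59 were below 1. The members were chosen for their lower levels in E19 HSTS, and no share of all genes is given beside this count. The count is thus a description, and nothing is read from it about handling. Choosing cells without these UMIs also chooses shallower cells and fewer blood cells, and the part of either in the change was not tested.

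**Figure D4:**
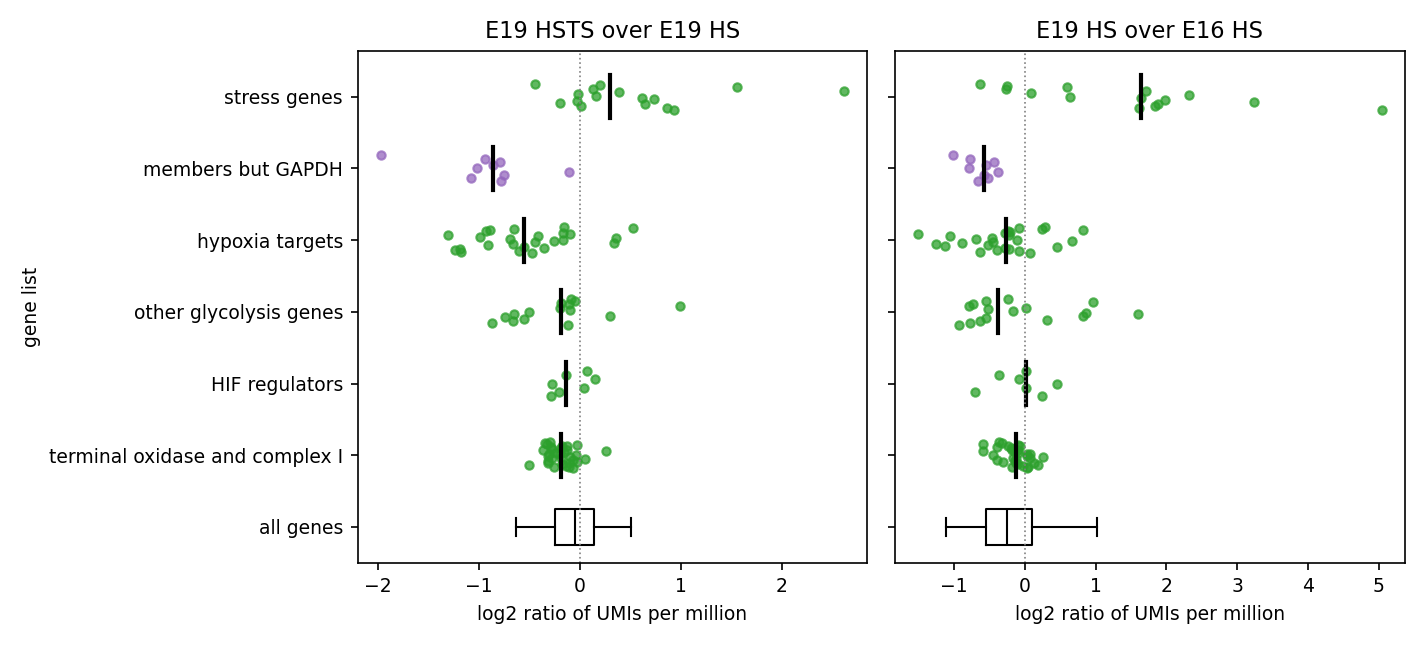
Log2 ratio of CPM for the genes of each list in E19 HSTS over E19 HS (left) and E19 HS over E16 HS (right); points are genes with at least 100 UMIs over both libraries, bars are medians, and the box for all genes shows the quartiles with whiskers at the percentiles 5 and 95. On the left the members (median ratio 0.551) and the hypoxia targets (0.680) lie to the left of the median of all genes (0.965), and on the right the stress genes (median 3.11) lie far to the right.

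Between day 16 and day 19 of Hu sheep the members were lower at the later day as well, with *GAPDH* as the exception at a ratio of E19 HS to E16 HS of 1.124 (1.115 to 1.132). This comparison shares the E19 HS library with that between breeds. In it 9 of 10 members were lower by at least 20%, where 43.8% of 11331 genes were lower and 15.8% higher (23.4% and 26.8% with TMM scaling), and the median gene had a ratio of 0.843. Over all kept cells *NDUFA4L2* had the lowest ratio, 0.496 (0.477 to 0.517), followed by *LDHA* at 0.580 and *TPI1* at 0.583. *ALDOA* was at 0.630, *ENO1* at 0.674 and *PGK1* at 0.686. *ALDOC* had 0.696 (0.5998 to 0.807), *PGAM1* 0.740 and *HK1* 0.771. With TMM scaling, which set the median gene at 1.00, *HK1*, *PGAM1*, *ALDOC* and *PGK1* were no longer lower by 20%, at 0.915, 0.878, 0.826 and 0.814. The days differed in makeup, with caudal progenitor-like cells 9.93% of E16 HS and 1.07% of E19 HS, and neural progenitor-like cells 7.04% and 23.1%. With the class makeup of E19 HS, *LDHA* was lowest at 0.589, and *TPI1* and *NDUFA4L2* came to 0.636 and 0.638.

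Of 26 hypoxia targets 11 were lower at day 19 and 3 higher, close to the background, and their median ratio of 0.835 lay beside 0.843 for all genes. *PLOD2* and *P4HA1*, which modify collagen, had ratios of 0.352 and 0.459 and *NDRG1* 0.418. *VEGFA* came to 1.05 (0.965 to 1.14) and *EGLN3* to 0.947 (0.824 to 1.09), while *BNIP3*, *SLC2A3*, *PDK1* and *SLC2A1* had 0.643, 0.726, 0.759 and 0.621. Of 16 further glycolysis genes 8 were lower and 4 higher, where 43.8% of all genes were lower and 15.8% higher. *HK2* at 0.523 and *GPI* at 0.585 were among the lower. The red cell enzyme *BPGM*, at 1.95 (1.75 to 2.18), was among the higher. *HIF1A* had a ratio of 1.19 (1.12 to 1.26), short of the 25% limit, and *EPAS1* was lower, at 0.615 (0.467 to 0.806). Of 15 stress genes 11 were higher at day 19, where 15.8% of all genes were. *FOS* was higher by 32.9-fold, and the part of this in the stage values was not tested.

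By class the stage values were less even, and so was the background. Of all genes, 85.2% were lower by at least 20% in blood progenitor-like, 43.1% in mesenchyme-like and 39.9% in somite-like cells. In the other classes the share was 15.6 to 36.6%. In mesenchyme-like cells the ratios ran from 0.508 for *NDUFA4L2* and 0.515 for *LDHA* to 0.732 for *PGAM1*, but E19 HS cells of that class lay mostly in the cluster led by *POSTN* and 1555 of the 2773 E16 HS cells in another, led by *COL1A1*, *DCN* and *LUM*. In blood progenitor-like cells, which lay in different clusters at the 2 days, they ran from 0.213 for *LDHA* to 0.590 for *PGK1*, where the median gene had a ratio of 0.551. In urogenital-like cells *NDUFA4L2* had 138 CPM (129 to 148) at day 16 and 44.4 CPM (38.8 to 50.6) at day 19, a ratio of 0.322, and *LDHA* had 0.506. In neural progenitor-like cells the member ratios other than those of *ALDOC* (0.515) and *HK1* (1.15) ran from 0.781 to 0.920, where the median gene had 0.920. In caudal progenitor-like cells, with 114 cells at day 19 and 1125 at day 16, *NDUFA4L2* was at 1.07 (0.861 to 1.33) and *LDHA* at 1.253 (1.07 to 1.46). In extraembryonic endoderm-like cells *NDUFA4L2* had 5 UMIs in 58 cells of E16 HS, 73 in 117 cells of E19 HS and 7 in 113 cells of E19 HSTS, or 9.49 CPM (3.08 to 22.1), 52.9 CPM (41.5 to 66.5) and 5.06 CPM (2.04 to 10.4). E19 HS was thus the high library in that class, and the other two overlapped.

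**Figure D5:**
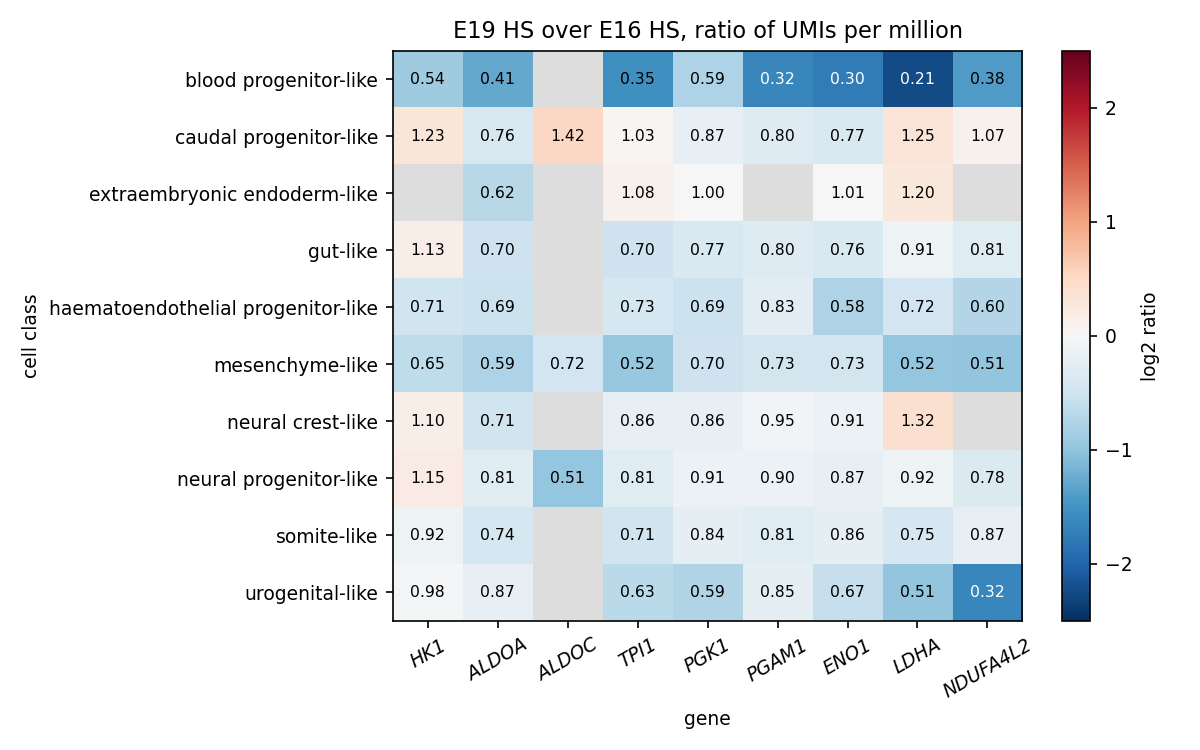
Ratio of the CPM in E19 HS to that in E16 HS for the 9 members other than *GAPDH* (columns) in the 10 cell classes with at least 50 cells in both libraries (rows), coloured on a log2 scale; grey cells had under 100 UMIs over both libraries. The lowest value is that of *LDHA* in blood progenitor-like cells (0.21), and caudal progenitor-like cells hold values on both sides of 1 (*PGAM1* 0.80, *HK1* 1.23).

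The genes whose pattern was most like that of *NDUFA4L2* were taken over 33 combinations of class and library with at least 50 cells, by the Pearson correlation of log2(CPM + 10) among 7543 genes. They were *BNIP3* (r = 0.874), *PDK1* (0.863), *GPI* (0.854), *TPI1* (0.817) and *PGK1* (0.811). The other members had 0.786 for *ENO1*, 0.762 for *LDHA*, 0.741 for *ALDOA*, 0.722 for *PGAM1*, 0.616 for *ALDOC* and 0.532 for *HK1*. For the sum of the 8 glycolysis members without *GAPDH*, the most alike of the other genes were *GPI* (0.952), *BNIP3* (0.923) and *PFKL* (0.898). The 33 points share 3 libraries, and the blood cells are low in nearly all of these genes, so the values describe these libraries.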

How the data were processed

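Single-cell RNA was counted in 3 libraries of whole embryos. The authors aligned the reads to Ovis_aries_genome_v1.0 and made the deposited counts with Cell Ranger 6.1.2, as whole UMIs for each gene in each cell. From these, CPM and ratios were computed in Python 3.11.15 (numpy 2.4.6, scipy 1.17.1, pandas 2.3.3). Clusters were made in R 4.3.3 with Seurat 5.3.0, all libraries together, at a resolution of 0.25, without the genes of the lists among the variable genes, and named by marker lists. Groups were taken from the labels, and depths run from 88733467 to 113213654 UMIs. With 1 library in each group no test was made. A gene was counted as lower at a ratio of 0.8 or less and as higher where it exceeded the other library by 25%, with at least 100 UMIs over both libraries.

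The members and the gene lists were chosen with earlier results of these data known. The genes named are the members, fixed HIF genes and targets, the 3 at either end of each list by ratio, and the 5 and 3 most like the members. Genes with a symbol on 2 rows were left out. Scrublet in scanpy 1.11.5 marked 193 cells of E19 HSTS and 198 cells of E16 HS as doublets. It marked none of 10629 cells of E19 HS and so did not work there, and no cell was removed in the values reported. The intervals were checked on simulated data. Other settings tried were TMM scaling in edgeR 4.0.16, tighter or no limits on cells, other totals and cell weights, cell makeup, doublet scores, resolution 1.0, RPCA integration, a 1.5-fold limit and other minimum counts. Leaving out the shallow cluster, or cells with a *FOS* or *HSPA1A* UMI, was added after seeing the data. E16 HSTS belongs to a different series and was not used here.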

Additional observations from a re-analysis of the deposited data

Results flagged for a closer look

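*HK1* ran against the other classes in 1 place between the breeds. In blood progenitor-like cells E19 HSTS had 1.48 times the E19 HS level (1.39 to 1.57), while the gene was lower by at least 20%, with an interval below 1, in 3 other classes. *LDHA* did so by stage. Its ratio of E19 HS to E16 HS was 1.253 (1.07 to 1.46) in caudal progenitor-like cells and 1.32 (1.02 to 1.73) in neural crest-like cells, while it was lower in 5 other classes. At a clustering resolution of 1.0 these became 1.242 (1.06 to 1.44) and 1.14 (0.949 to 1.35), so neither was higher by 25% and the interval in neural crest-like cells held 1. These differences between classes were not tested, since there is 1 library in each group.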

How the results depend on the processing

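No member changed direction in either comparison under the 10 alternatives. The median ratio of the 9 members other than *GAPDH*, 0.551 by breed, was 0.535 with the stricter filter, 0.574 with TMM scaling, 0.523 without haemoglobin, mitochondrial and ribosomal genes in the total, 0.677 without blood progenitor-like cells, 0.642 with the class makeup of E19 HS, 0.679 without blood and shallow cells and 0.770 without cells that hold a *FOS* or *HSPA1A* UMI. Relative to the median gene it ran from 0.535 to 0.588. By stage the median of 0.674 was 0.651 with all deposited cells, 0.7998 with TMM scaling, 0.685 with the reduced total, 0.745 with each cell given the same weight, 0.725 without blood progenitor-like cells, 0.698 with the class makeup of E19 HS, 0.720 without blood and shallow cells and 0.651 without cells with a *FOS* or *HSPA1A* UMI. The count of hypoxia targets lower by breed went from 17 to 5 without *FOS* or *HSPA1A* cells, where the median gene rose from 0.965 to 1.31. The median of the targets rose from 0.680 to 0.958. Relative to the median gene the targets were at 0.705 and 0.732. By stage the 11 became 7 with TMM scaling, with equal cell weights and at 1.5-fold, and the 8 other glycolysis genes became 5 with TMM scaling and at 1.5-fold. By class, the share of member and class pairs lower by at least 20% was 79.8% by breed and 55.7% by stage. Of all genes in a class, 4.36 to 22.2% were lower by breed and 15.6 to 85.2% by stage. The share of pairs kept within 1.5 times, at 81.5 to 85.0% and 52.9 to 57.5%, in the other settings. These were resolution 1.0, RPCA integration, leaving out the top doublet scores, and leaving out *FOS* or *HSPA1A* cells. The members were chosen on the breed contrast in the same libraries, so the shares by breed are a description. The doublet setting dropped the top 8% of scores in each library and not called doublets, so it cannot show that doublets had no part. The pairs higher by at least 25% by stage went from 3 to 7 with RPCA integration, 5 of them in cardiomyocyte-like cells (1.43 to 2.10), a class with 28 cells in E16 HS and not compared otherwise. No paired analysis was possible because each group has 1 library. Counting depth limits *ALDOC* and the classes under 150 cells most, and the spread between embryos is unknown.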
